A study of Homo sapiens with 6 samples.

Results

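The 41 genes described here encode the nuclear subunits of respiratory complexes II, III and IV and of ATP synthase (complex V), together with a supercomplex factor (COX7A2L) and an inhibitor (ATP5IF1). They were taken by symbol from the 34644 gene names of the deposited tables, and all 41 were found: 4 of complex II, 9 of complex III, 12 of complex IV and 16 of ATP synthase. Counts were summed where a gene name had more than 1 line. RNA was sequenced from the human podocyte line HPC in 6 libraries, each from a culture in high glucose with 24 h in its title. Cultures with the negative control lentivirus (NC) gave 3 libraries and cultures with the PRDM16 overexpressing lentivirus gave the other 3. The genotype of every sample is labelled WT. The labels name no promoter or dose of the virus, no glucose concentration and no separate cultures or passages, so the p-values reflect the variation among these libraries alone, which may be technical.

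The respiratory chain passes electrons from nutrients to oxygen in the inner mitochondrial membrane and pumps protons across it. Complex II takes electrons from succinate and is also an enzyme of the citric acid cycle, complex III passes them to cytochrome c, and complex IV hands them to oxygen. ATP synthase lets the protons flow back through a rotating ring and makes ATP. All subunits of complex II come from nuclear genes, while the other complexes also hold subunits from the mitochondrial genome, whose transcripts were not analysed here. Podocytes, the cells that wrap the filtering capillaries of the kidney, use both glycolysis and mitochondrial ATP, and PRDM16 is a transcription factor best known from brown fat, a tissue rich in mitochondria.

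Library totals lay between 20147135 and 41280350 counts. PRDM16 had 0 counts in each NC library and 11, 18 and 24 in the PRDM16 libraries, which is at least 13.9-fold higher over the group than 3 counts in the NC group (edgeR adjusted p = 0.000132). In a chi-square comparison of counts NC library 2 stood apart from the other 5 libraries (25.6 to 62.1 per degree of freedom), also from its own group (35.0 and 25.6), and the closest pair was NC library 1 with PRDM16 library 3 (8.95). Of the podocyte markers NPHS1 had 0 to 3 counts and WT1 1 to 4 in each library, and 2 of 7 had at most 3 counts throughout, while PODXL, SYNPO and CD2AP were present. The summed TPM (a level per length, scaled to the same total in each library) of the 7 podocyte markers was 149 to 205 under NC and 119 to 141 under PRDM16, without overlap. Most of this sum was CD2AP (101.8 ± 28.1 and 72.0 ± 10.6 TPM, SD, n = 3) and PODXL (58.1 and 49.3). By counts scaled to library size, the groups overlapped in each of the 4 podocyte markers tested (1 higher, 3 lower). The summed TPM of 7 parietal and simple epithelial markers was 5533 to 5956 under NC and 5716 to 6352 under PRDM16. Most of it was KRT8, KRT18 and KRT19 (1718, 1234 and 2333 TPM over all libraries), while CDH1 had 14 to 25 counts and EPCAM 49 to 125. The sums were 3.01 to 3.18 and 2.37 to 3.25 for 5 proximal tubule markers (LRP2 at 0), 1.22 to 1.39 and 1.18 to 1.43 for 5 endothelial markers (KDR at 0), and 151 to 170 (169.7) and 130.4 to 161 for 5 fibroblast and mesangial markers, among which PDGFRA was at 0 or 1 counts and COL1A1 present. Of the 4 leukocyte markers, whose sum was 239 to 264 and 262 to 288, CD3E was at 0, PTPRC had 9 to 22 counts, and CD68, which is also a lysosomal protein of other cells, made nearly all of the sum. The part of these markers in the results below was not tested.

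The promoters of many genes of the respiratory chain are known as targets of NRF1 and of GABP, a member of the ETS family, and are described here by their letters only. RefSeq promoters (GRCh38.p14, 250 bases before to 50 after the start) were found for 32 of the 41 members. The others are SDHC, CYC1, UQCRB, COX6C, NDUFA4, ATP5F1B, ATP5F1D, ATP5MC3 and ATP5MF. The ETS core ccggaag was present on either strand in 14 of 32 member promoters (43.8%), against 10.7% of 27305 promoters of all genes and 18.1% of the 11726 promoters of genes tested here. It was found in 2 of 3 promoters of complex II, 3 of 7 of complex III, 5 of 10 of complex IV and 4 of 12 of ATP synthase. These 8 stretches, with each match in capitals (CCGGAAG, or CTTCCGG where it lies on the other strand), are shown to let the sites be compared across the complexes.

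SDHB: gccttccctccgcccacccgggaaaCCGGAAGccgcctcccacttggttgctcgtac
SDHD: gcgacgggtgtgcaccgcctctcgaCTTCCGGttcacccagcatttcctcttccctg
UQCRQ: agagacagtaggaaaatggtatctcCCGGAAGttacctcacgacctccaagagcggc
UQCR11: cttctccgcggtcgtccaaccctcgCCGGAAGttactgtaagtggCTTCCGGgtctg
COX5B: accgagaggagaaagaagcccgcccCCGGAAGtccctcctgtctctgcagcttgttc
COX8A: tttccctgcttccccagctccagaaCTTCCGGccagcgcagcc
ATP5PD: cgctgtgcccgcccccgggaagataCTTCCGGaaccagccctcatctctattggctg
ATP5PF: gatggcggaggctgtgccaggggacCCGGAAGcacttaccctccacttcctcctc

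The stretches lie at chr1:17054129-17054185 (minus strand) for SDHB, chr11:112086771-112086827 (plus) for SDHD, chr5:132866563-132866619 (plus) for UQCRQ and chr19:1605548-1605604 (minus) for UQCR11. Those of the other 4 lie at chr2:97646000-97646056 (plus) for COX5B, chr11:63974577-63974619 (plus) for COX8A, chr17:75047039-75047095 (minus) for ATP5PD and chr21:25735055-25735109 (minus) for ATP5PF. The first match starts 128 bases before the start of SDHB, 77 before that of SDHD, 54 before UQCRQ, 117 before UQCR11 (with a further match on the other strand 97 before it), 37 before COX5B, 18 before COX8A, 101 before ATP5PD and 30 before ATP5PF. These are the starts of the RefSeq promoters. In the deposited tables ATP5PF is listed from 25724500 to 25735653, so its stretch lies within the listed gene. Other letters were also searched on both strands, with overlaps allowed. The palindromic NRF1 core was in 2 member promoters, SDHD and ATP5F1C, or 6.25% against 1.36% of all promoters and 2.22% of those of tested genes. The YY1 core aagatggcg was in 3 (SDHB, UQCRC1 and ATP5PF), or 9.38% against 1.85% and 3.66%. The SP1 core gggcgg was in 19 (59.4%), above the 44.6% of all promoters and below the 67.8% of those of tested genes, and the TATA box tataaa in 3 (9.38%), below 12.0% and above 6.05%. The median log2 fold change under PRDM16 was 0.24 over the 14 members with the ETS core and 0.21 over the 18 without it. Over the tested genes with and without it, it was -0.019 and -0.022. A match describes letters only, and binding was not measured.

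Levels per length spanned a wide range within each complex. The mean TPM over the 6 libraries ran from 37.3 to 231 in complex II, from 10.6 to 600.3 in complex III, from 61.9 to 1552 in complex IV and from 4.66 to 1262 in ATP synthase. The most abundant member was COX8A, a small structural subunit of complex IV, at 1418 ± 82.3 TPM under NC and 1686 ± 61.1 under PRDM16 (SD, n = 3). COX6A1, another small subunit of complex IV, was at 1350 TPM over all libraries and ATP5F1B, the catalytic beta subunit of the ATP synthase head, at 1262. In complex III UQCRH, the hinge protein that helps dock cytochrome c, led with 600.3 TPM, and in complex II SDHB, the iron-sulfur subunit, with 231. Summed over its members, complex IV held 0.578% of all TPM under NC and 0.637% under PRDM16, ATP synthase 0.504% and 0.531%, complex III 0.209% and 0.232%, and complex II 0.0497% and 0.0485%.

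**Figure D1:**
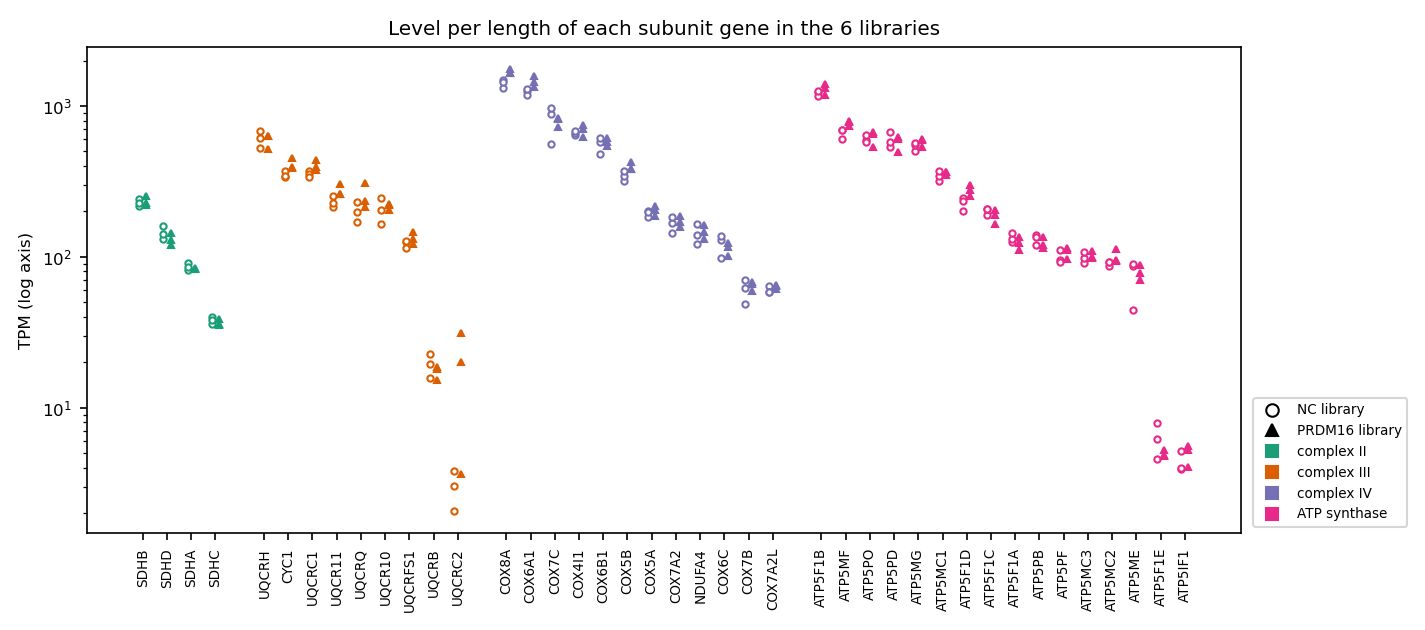
TPM on a log axis for each of the 41 genes in each library, sorted within its complex, with open circles for the 3 NC and filled triangles for the 3 PRDM16 libraries. Most genes lie between about the levels of COX7A2L (61.9) and COX8A (1552), and UQCRB, UQCRC2, ATP5F1E and ATP5IF1 have means under 20.

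The 4 members with a mean under 20 TPM need care, since partners in the same complex stood far above them. UQCRC2, a core protein of complex III, was at 10.6 TPM against 378 for its partner UQCRC1. It is listed at 2 places, on chromosome 16 at 21953361 to 21983660 (hg38, plus strand) and on a scaffold. ATP5IF1, the inhibitor that stops ATP synthase from running backwards, was at 4.66 TPM and also has 2 places. On chromosome 1 it had 0 or 1 counts in each library, and the rest, 59 to 148 counts, lay on a scaffold. ATP5F1E, the epsilon subunit of the central stalk, was at 5.60 TPM. On chromosome 20 (59025475 to 59032335) it shares 40.7% of its exon bases with other listed genes, namely the readthrough gene SLMO2-ATP5E and TUBB1 on the other strand. UQCRB, a complex III subunit on chromosome 8, was at 18.3 TPM over a listed length of 8863 bases. How reads that match more than 1 place or gene were counted is not given in the sources used here, so these levels are uncertain. In all, 9 members share exon bases with another listed gene. The share is over 20% in ATP5F1E, ATP5ME, ATP5MF, ATP5PB and ATP5PF, the last with GABPA on the other strand, which encodes a subunit of GABP.

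With the PRDM16 lentivirus, 39 of the 41 members had a higher fitted level than under NC, with a median log2 fold change of 0.21 (from CPM, counts scaled to library size with TMM factors). Over all 15053 genes tested 47.3% were higher and the median was -0.021. By mean TPM, SDHA, SDHC, SDHD, UQCRH, COX6C, COX7C, ATP5F1A, ATP5F1C, ATP5PB and ATP5PD stood lower under PRDM16, besides the members lower by CPM. The mean TPM sum over all members was 13410 under NC and 14484 under PRDM16. The fitted differences were small and no member passed the edgeR quasi-likelihood test at an adjusted p of 0.05, the lowest being 0.193. By the same rule 0.12% of all genes passed (0.093% higher and 0.0266% lower). DESeq2 and limma-voom called 0 members too. At an unadjusted p under 0.05 there were 12 members, all higher (29.3%, against 9.8% of all genes higher at that p). In 10 members the lowest PRDM16 library exceeded the highest NC library (24.4%, against 12.4% of all genes), and in 0 members the reverse held (8.7% of all genes). Over the 39 members listed at 1 place, 11 had an unadjusted p under 0.05 and were higher (28.2%), and 9 were higher without overlap (23.1%). In bulk RNA a change in the number of cells of a kind and a change in RNA per cell cannot be told apart. The counts rested on single libraries. At the unadjusted p there were 25 members without PRDM16 library 3, 24 without NC library 3 and 3 without PRDM16 library 1, all higher. Of all genes 10.1%, 7.72% and 3.51% were higher at that p in these fits. The adjusted p was passed by 3 members without PRDM16 library 3 (UQCRC2, UQCRQ and ATP5F1D, where 0.832% of all genes passed) and 1 without NC library 3 (UQCRQ, 0.952% of all genes). Without NC library 2, which stood apart, 39 members were higher with a median log2 fold change of 0.17. There 9 had an unadjusted p under 0.05, all higher (6.27% of all genes were higher at that p), and 0 passed the adjusted p (edgeR).

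**Figure D2:**
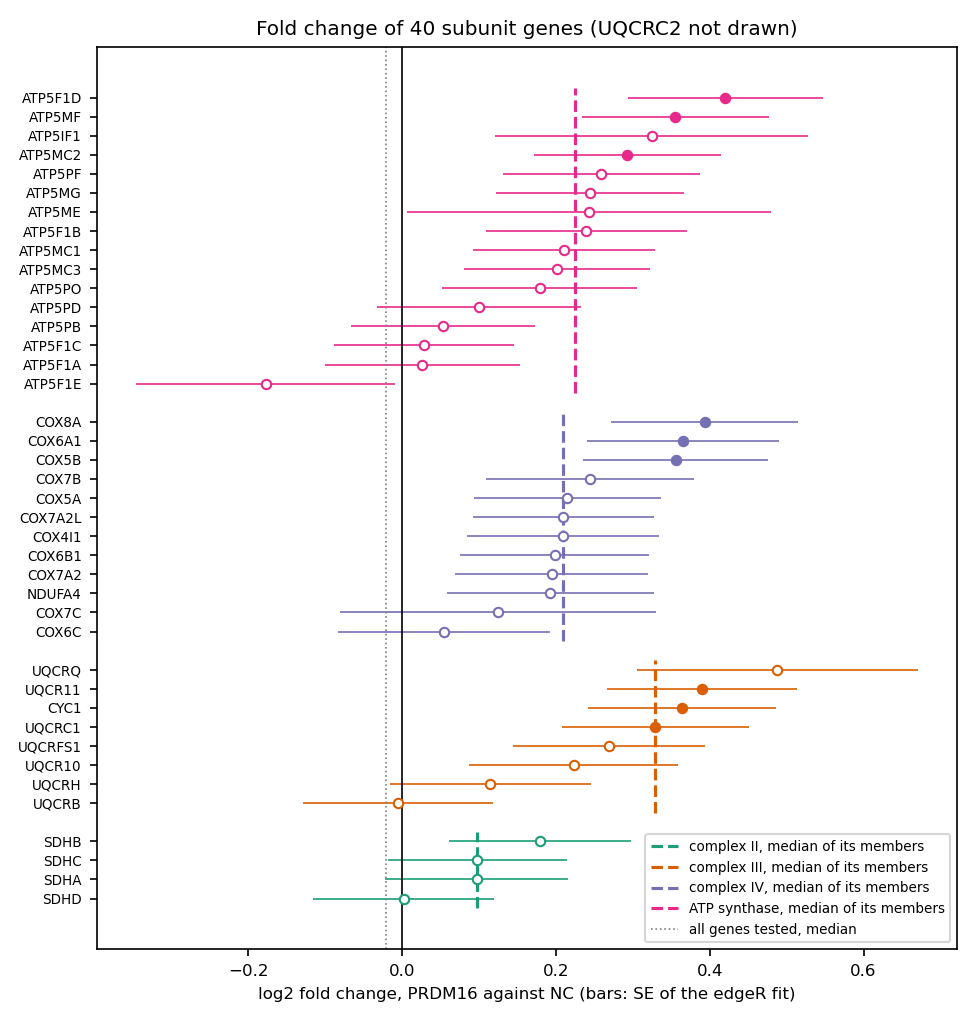
Log2 fold change of PRDM16 against NC for 40 genes (x axis), with bars for the SE of the edgeR fit, and filled points where the 3 PRDM16 libraries all exceeded the highest NC library. Dashed lines mark the median of each complex, 0.10 for complex II, 0.33 for complex III (with UQCRC2), 0.21 for complex IV and 0.23 for ATP synthase, and the dotted line the median of all tested genes at -0.021.

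Complex II had the lowest median. The median log2 fold change of its 4 members was 0.10, 0 had an unadjusted p under 0.05, and in each the libraries of the groups overlapped. SDHA, the flavoprotein that oxidises succinate, was at 289, 240.1 and 279 CPM in the NC libraries and at 300.1, 292 and 272 in the PRDM16 libraries (log2 fold change 0.10 ± 0.12 SE, edgeR adjusted p = 0.657). Its PRDM16 library 3 lay below NC libraries 1 and 3. SDHB was at 86.7, 71.9 and 84.1 CPM under NC and 90.9, 100.3 and 83.6 under PRDM16 (0.18 ± 0.12). The membrane anchor SDHC differed by 0.10 ± 0.12, like SDHA, and the anchor SDHD by 0.0020 ± 0.12, at 76.7 ± 5.89 and 76.8 ± 7.81 CPM (SD, n = 3). The direction of complex II depended on the measure. The sum of its TPM was 497 ± 4.29 under NC and 485 ± 29.8 under PRDM16 (SD, n = 3), so that its mean stood lower. The median of its log2 fold changes from CPM stood higher. The length of a gene is the same in all libraries, so its changes in CPM and in TPM differ only by how each library is scaled. Single members of other complexes changed direction in the same way, such as UQCRH (607 and 594 TPM) and ATP5F1A (134 and 123). Without PRDM16 library 3 the median log2 fold change of complex II was 0.15 and without PRDM16 library 2 it was 0.065.

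Complex III had the highest median, 0.33 over 9 members and 0.30 over the 8 listed at 1 place. An unadjusted p under 0.05 was found in 6 members (66.7%, against 9.8% of all genes higher at that p). In 4 of them the libraries did not overlap (44.4%, against 12.4% of all genes higher without overlap). These numbers include UQCRC2. Over the 8 members listed at 1 place they were 5 (62.5%) and 3 (37.5%). Among all genes in the shortest of 5 equal bins of length, which holds 7 of the 9 members, 20.4% were higher without overlap. Among the catalytic subunits, CYC1, the cytochrome c1 that passes electrons on to cytochrome c, was at 248, 211 and 238 CPM under NC and 343, 288 and 268 under PRDM16 (log2 fold change 0.36 ± 0.12 SE, edgeR adjusted p = 0.231). Each PRDM16 library lay above each NC library. UQCRFS1, the Rieske iron-sulfur protein, was at 135, 115 and 144 CPM under NC and 183, 159 and 135 (134.5) under PRDM16 (0.27 ± 0.12), with PRDM16 library 3 within the NC range.

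The core protein UQCRC1 was at 256, 228 and 242 CPM under NC and 346, 301 and 266 under PRDM16, without overlap (log2 fold change 0.33 ± 0.12 SE, edgeR adjusted p = 0.251). Its partner UQCRC2 had 17, 37 and 13 counts at its place on chromosome 16 in the NC libraries and 436, 35 and 53 in the PRDM16 libraries. At the scaffold it had 30, 32 and 17 counts under NC and 26, 385 and 52 under PRDM16. PRDM16 library 1 was thus high at the chromosome and PRDM16 library 2 at the scaffold, each at 1 place only, while PRDM16 library 3 was, for its greater depth, near the NC libraries (2.52 CPM in sum, against at most 2.37). The sum gave 1.95 ± 0.474 CPM under NC and 13.9 ± 10.8 under PRDM16 (SD, n = 3). The log2 fold change of 2.79 ± 0.97 did not pass (edgeR adjusted p = 0.288). Without PRDM16 library 3 it was 3.30 and passed (edgeR adjusted p = 1.9e-56). The difference between the groups in UQCRC2 thus rests on 1 place in each of 2 libraries.

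**Figure D3:**
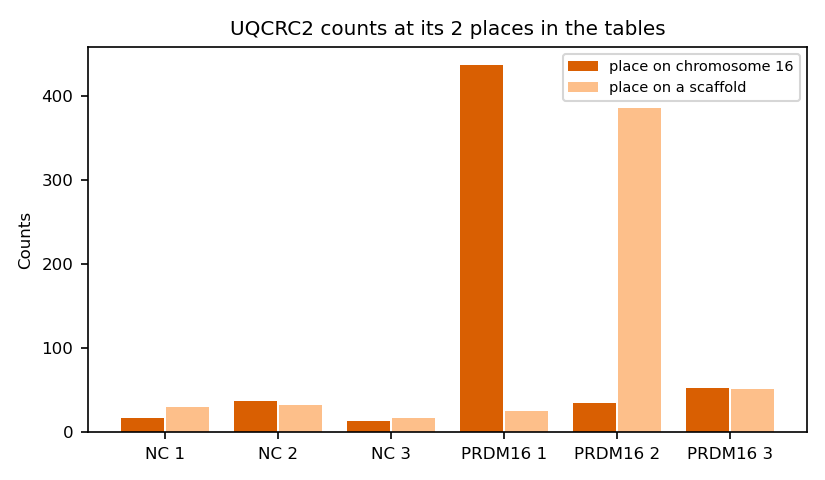
Counts of UQCRC2 (y axis) in each library at its place on chromosome 16 (dark bars) and on a scaffold (light bars). PRDM16 library 1 has 436 counts at the chromosome and PRDM16 library 2 has 385 at the scaffold, while every other bar is at 53 or below.

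The small subunits of complex III were uneven. UQCRQ, which lies beside the cytochrome b subunit, was at 94.8, 103 and 133 CPM under NC and 197, 145 and 121 under PRDM16 (log2 fold change 0.49 ± 0.18 SE, edgeR adjusted p = 0.267). PRDM16 library 3 lay below NC library 3, and UQCRQ passed without either of them (edgeR adjusted p = 0.00293 and 0.00486) and with no count filter (0.0101; 0.451% of all genes passed there). UQCR11 was at 98.0, 96.9 and 120.1 CPM under NC and 159, 133 and 121 under PRDM16, apart by a narrow margin between NC library 3 and PRDM16 library 3 (0.39 ± 0.12). UQCR10 was at 0.22 ± 0.14 and the hinge protein UQCRH at 0.11 ± 0.13. UQCRH has a close relative, UQCRHL, with 66 to 124 counts per library, so reads may be split between them. UQCRB was at 59.2 ± 9.17 CPM under NC and 59.0 ± 4.28 under PRDM16 (SD, n = 3; -0.0054 ± 0.12).

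In complex IV all 12 members were higher, with fold changes between 0.055 and 0.39 on the log2 scale and a median of 0.21. An unadjusted p under 0.05 was found in 3 members, the same 3 whose libraries did not overlap (25%). Over all genes 9.8% were higher at that p and 12.4% were higher without overlap. In the shortest of 5 equal bins of length, which holds 10 of the 12 members, 20.4% of all genes were higher without overlap. The 3 members without overlap are structural subunits around the catalytic core. COX8A was at 257, 215 and 262 CPM under NC and 351, 321 and 292 under PRDM16 (log2 fold change 0.39 ± 0.12 SE, edgeR adjusted p = 0.198). COX6A1 was at 238, 209 and 255 CPM under NC and 342, 303 and 259 under PRDM16 (0.37 ± 0.12, edgeR adjusted p = 0.233). COX5B, which binds zinc, was at 77.2, 77.6 and 93.6 CPM under NC and 119, 103 and 95.6 under PRDM16 (0.36 ± 0.12, edgeR adjusted p = 0.231). In each of these 3 the lowest PRDM16 library was library 3, and it lay close above the highest NC library in COX6A1 and COX5B.

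Of the other members of complex IV, COX4I1, a regulatory subunit that binds ATP, was at 282, 269 and 312 CPM under NC and 372, 344 and 280.2 under PRDM16 (log2 fold change 0.21 ± 0.12 SE). COX6C was at 39.1 ± 7.06 and 40.7 ± 5.89 CPM (SD, n = 3; 0.055 ± 0.14), the smallest difference of the complex. COX7C had the widest spread, with 124, 183 and 224 CPM in the NC libraries and 209, 206 and 164 in the PRDM16 libraries (0.13 ± 0.21). NDUFA4, once counted to complex I and now to complex IV, was at 87.7, 93.1 and 123 CPM under NC and 121, 130.3 and 95.7 under PRDM16 (0.19 ± 0.13). COX7A2L, which helps complexes III and IV to join in supercomplexes, was at 96.9, 81.6 and 92.0 CPM under NC and 112, 107 and 93.9 under PRDM16 (0.21 ± 0.12). Its paralog COX7A2 was at 0.19 ± 0.13, close to it. The median of complex IV was 0.32 without NC library 3.

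The median log2 fold change of the 16 ATP synthase members was 0.23. Of these, 15 were higher, 3 had an unadjusted p under 0.05 and the same 3 did not overlap (18.75%). Over all genes 9.8% were higher at that p and 12.4% were higher without overlap. In the shortest of 5 equal bins of length, which holds 11 of the 16 members, 20.4% of all genes were higher without overlap. In the F1 head and central stalk the 5 members differed among themselves. ATP5F1D, the delta subunit at the foot of the central stalk, was at 85.9, 66.2 and 85.8 CPM under NC and 121, 107 and 90.3 under PRDM16 (log2 fold change 0.42 ± 0.13 SE, edgeR adjusted p = 0.193), and passed without PRDM16 library 3 (edgeR adjusted p = 0.0352). ATP5F1B was at 762, 673 and 814 CPM under NC and 999, 908 and 749 under PRDM16 (0.24 ± 0.13), with PRDM16 library 3 below NC libraries 1 and 3. ATP5F1A, the alpha subunit that alternates with beta in the head, was at 299 ± 34.5 and 305 ± 44.6 CPM (SD, n = 3; 0.026 ± 0.13) and the gamma subunit ATP5F1C at 78.5 ± 5.62 and 80.0 ± 8.30 CPM (0.028 ± 0.12). ATP5F1E, at 5.80, 9.31 and 8.25 CPM under NC and 7.02, 6.86 and 6.82 under PRDM16, had the lowest value of all members (-0.18 ± 0.17).

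The 3 genes of the c ring, ATP5MC1, ATP5MC2 and ATP5MC3, encode the same mature protein behind different import signals. Their levels per length differed, with 351 TPM for ATP5MC1, 95.7 for ATP5MC2 and 101 for ATP5MC3 over all libraries, the last 2 within each other's spread. Their log2 fold changes were near each other, at 0.21 ± 0.12, 0.29 ± 0.12 and 0.20 ± 0.12 (SE). ATP5MC2 was at 93.0, 92.1 and 101.39 CPM under NC and 138, 112 and 101.44 under PRDM16, so that its groups were apart by less than 1 CPM (edgeR adjusted p = 0.265). ATP5MF, an accessory subunit of the membrane part, was at 108, 87.6 and 113 CPM under NC and 143, 135 and 117 under PRDM16, without overlap (0.36 ± 0.12, edgeR adjusted p = 0.233). It shares 33.2% of its exon bases with the readthrough gene ATP5MF-PTCD1. The peripheral stalk, which holds the head still, had 4 members at 0.054 (ATP5PB), 0.10 (ATP5PD), 0.18 (ATP5PO) and 0.26 (ATP5PF). ATP5IF1 was at 2.62, 2.47 and 3.55 CPM under NC and 4.26, 2.98 and 3.58 under PRDM16 (0.32 ± 0.20). The median of ATP synthase was 0.13 without PRDM16 library 1.

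By CPM, PRDM16 libraries 1 and 2 stood high and NC libraries 1 and 2 low in all 4 complexes. The remaining pair lay between them in complexes III and IV and in ATP synthase. As a median over the 41 members, the deviation of log2 CPM from each gene's mean was -0.18, -0.20 and 0.056 in the NC libraries and 0.25, 0.17 and -0.085 in the PRDM16 libraries, so that PRDM16 library 3 lay below NC library 3. Single members showed the same order, with 29 of 41 lower in PRDM16 library 3 than in NC library 3. PRDM16 library 1 lay above every NC library in 31 members, PRDM16 library 2 in 30 and PRDM16 library 3 in 11. The highest library was PRDM16 library 1 in 27 members, against 24.5% of all genes tested. The lowest was NC library 1 in 18 and NC library 2 in 18, against 9.56% and 34.2% of all genes. In each complex PRDM16 libraries 1 and 2 were above 0 and NC libraries 1 and 2 below it. In complex II PRDM16 library 3 (-0.066) also lay below NC library 1 (-0.049). Complex II had the narrowest range, from -0.14 to 0.15, against -0.30 to 0.35 in complex III. The sums of TPM had the same order in complex IV, with 5427, 5716 and 6201 in the NC libraries and 6738, 6406 and 5957 in the PRDM16 libraries. In complex II they had another order, with 501, 499 and 492 under NC and 460, 518 and 478 under PRDM16, so that PRDM16 library 1 was lowest. In ATP synthase PRDM16 library 3 (4866) lay below every NC library (4876 to 5352.5). No test of the difference between complexes was made.

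**Figure D4:**
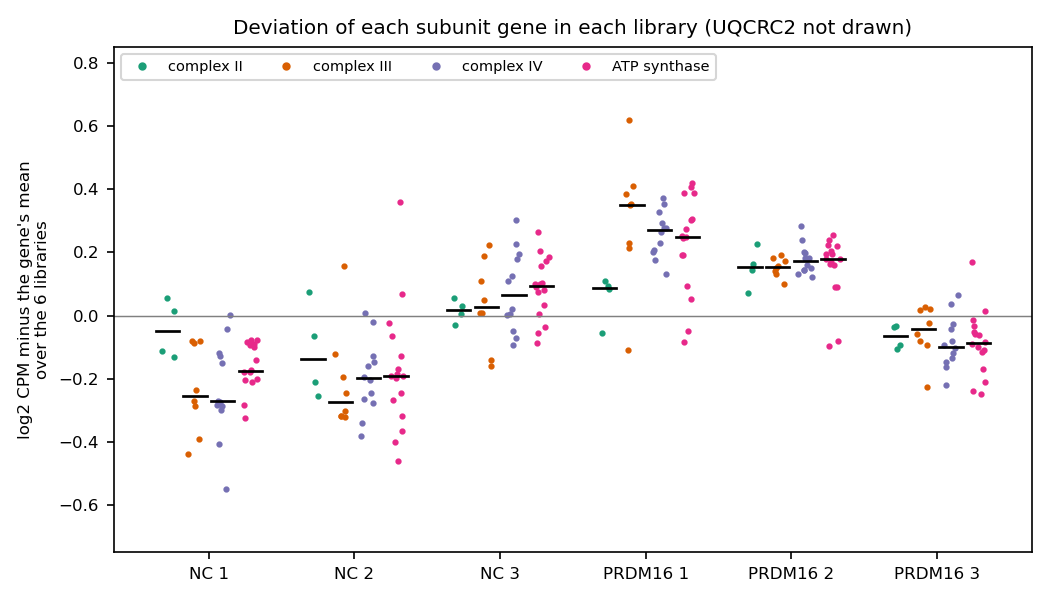
Deviation of log2 CPM from the gene's mean over the 6 libraries (y axis) for 40 genes, by library and complex, with black bars for the median of the points drawn. The points of PRDM16 libraries 1 and 2 lie mostly above 0, those of NC libraries 1 and 2 mostly below it, and PRDM16 library 3 sits under NC library 3 (medians over all members -0.085 and 0.056).

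Gene length and base composition moved with these values. The members are short, with a median listed length of 1501 bases, and 30 of them fell in the shortest of 5 equal bins of tested genes, from 111 to 2090 bases. In that bin the median log2 fold change of all 3011 genes was 0.15, against 0.23 for the 30 members, and 20.4% of all genes had PRDM16 libraries wholly above NC, against 9 of the 30 members (30.0%). The longest bin, from 7438 bases, had a median of -0.17 over all genes, and its 3 members SDHA, SDHC and UQCRB were at 0.10, 0.10 and -0.0054. Complex II holds the longest members, with a median length of 5243 bases, against 1892 in complex III, 1050 (1049.5) in complex IV and 1338 (1337.5) in ATP synthase. The members do not stand out in GC content, with a median of 48.9%, but among them the fold change ran along it: Spearman's rho was 0.551 over the 41 members, 0.641 over the 14075 genes with a value, and with length -0.243 and -0.398. Genes of one library share its depth and composition, so no p is given. The 2 members in the bin of highest GC content, ATP5F1D and CYC1, were at 0.42 and 0.36, against a median of 0.24 over all genes in it, and the 7 members in the lowest had a median of 0.055 against -0.21.

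**Figure D5:**
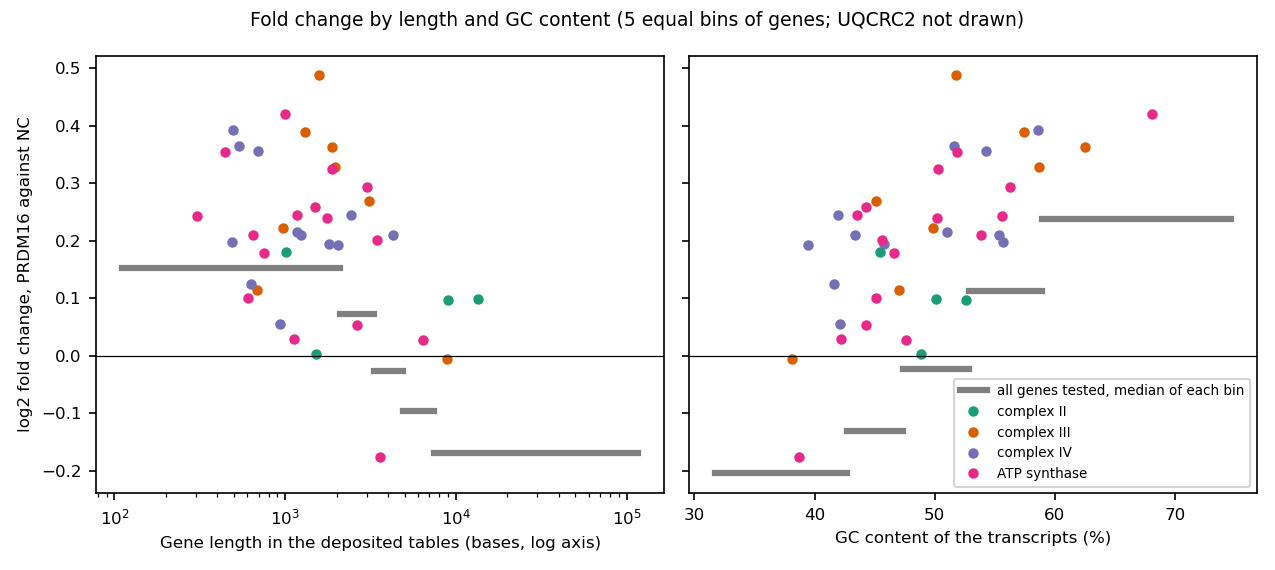
Log2 fold change of 40 genes against listed length (left, log axis) and GC content of the transcripts (right), coloured by complex, with grey bars for the median of all tested genes in each of 5 equal bins. The grey bars fall from 0.15 to -0.17 with length and climb from -0.21 to 0.24 with GC content, and most members lie above the bar of their bin.

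With the trend of each library with length taken out, the medians were 0.13 in complex II, 0.23 in complex III, 0.087 in complex IV and 0.11 in ATP synthase, and the order of the complexes changed, with complex II above complexes IV and V. Higher members numbered 33 of 41 (48.1% of all genes), and 7 had an unadjusted p under 0.05 and were higher, or 17.1%, against 8.44% of all genes. COX6C and UQCRH then stood at -0.092 and -0.034 and SDHD at -0.12, while SDHC stood at 0.25 and SDHA at 0.21. With the trends with length and GC content both taken out, the medians came closer together, at 0.15, 0.18, 0.15 and 0.12. Higher members then numbered 37 of 41 (51.7% of all genes), and 8 had an unadjusted p under 0.05 and were higher, or 19.5%, against 3.84% of all genes. The values of the 2 members richest in GC were then lower, at 0.0080 in place of 0.42 for ATP5F1D and 0.090 in place of 0.36 for CYC1, whereas UQCRB, the poorest in GC, stood at 0.25 in place of -0.0054. UQCRQ stood at 0.39 in place of 0.49, while UQCRFS1 stood at 0.33 in place of 0.27 and COX7A2L at 0.33 in place of 0.21. No member passed over all genes in either fit, with the lowest edgeR adjusted p at 0.337 and 0.739.

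Genes that build or vary these complexes gave mixed values, while most subunits of complex I were higher. Of the 38 assembly factors of complexes II to V, all tested, 24 were higher and 14 lower with a median log2 fold change of 0.045, 0 passed, and 5 had an unadjusted p under 0.05 (3 higher, 2 lower; 9.8% and 7.08% of all genes). LYRM7, which stabilises the Rieske protein before its insertion in complex III, had the lowest p (-0.40 ± 0.14 SE, edgeR adjusted p = 0.248), followed by COX14, a factor for the first catalytic subunit of complex IV (0.35 ± 0.13), and TACO1, which activates translation of that subunit (0.30 ± 0.12). By complex, their medians were 0.18 (4 factors of complex II), 0.14 (6 of complex III), 0.026 (24 of complex IV) and -0.026 (4 of ATP synthase). Most of the tissue isoforms were near the floor. COX6A2 of muscle, COX7B2 and COX8C of testis had 0 counts in every library, COX4I2 of lung 0 to 2 and COX7A1 of muscle and brown fat 1 to 4. The 3 isoforms or close relatives that passed the count filter were COX6B2 with 25 to 68 counts, NDUFA4L2 with 28 to 73 and UQCRHL with 66 to 124. Of the 37 complex I subunits 33 were higher, with a median of 0.15. The unadjusted p fell below 0.05 in 11 of these subunits, all higher (29.7%, against 29.3% of the members). In 8 the PRDM16 libraries lay wholly above NC (21.6%, against 24.4% of the members), so these shares were not particular to complexes II to V. Only NDUFB7 passed (0.55 ± 0.12, edgeR adjusted p = 0.0407), where 0.12% of all genes did so.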

How the data were processed

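RNA was sequenced in 6 libraries of an established human cell line, with groups and replicate numbers taken from the sample titles. The deposited tables, aligned to hg38 per the submitters' processing notes, give raw counts, TPM and FPKM per gene, per the file headers. Not given in the sources used here: aligner, read counter, annotation release, strandedness, and how reads with several matches were handled. The deposited FPKM follow from the counts, lengths and totals and were only checked. The deposited TPM served for levels per length.

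The lines of 7 genes, broken in the files, were rejoined, and counts were summed over 38648 lines to 34644 gene names. Between 20147135 and 41280350 counts per library put 3 counts at 0.0727 to 0.149 CPM. Floors cover counting error only. No 2 libraries agreed within sampling noise (chi-square per degree of freedom 8.95 to 62.1). Same-numbered libraries deviated together with correlations of 0.119, -0.124 and -0.153, so the numbers were not taken as pairs.

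Genes were tested with edgeR 4.0.16 in R 4.3.3 (quasi-likelihood, robust, TMM, minimum count 10 and total 15), which left 15053 genes, with Benjamini-Hochberg adjustment over all of them. It was tested on simulated data. SEs come from the fold change and F. Alternatives were DESeq2 1.42.0, limma-voom 3.58.1, DESeq2 size factors, no filter, the replicate block, each listing on its own, offsets from natural splines (5 degrees of freedom) of log2 length alone or with GC content (GENCODE transcripts, 14075 genes), and leaving out each library. The medians and counts over members listed at 1 place were added after seeing the data. Named were PRDM16, every member with an unadjusted p under 0.05, the extremes of fold change and TPM in each complex, complex II, the c ring, COX7A2L, NDUFA4 and ATP5IF1, and up to 3 genes of other lists. Other members were named with their complex. The members and lists were chosen with earlier results of these data known. Promoter stretches were picked to cover each complex. One podocyte marker of the list is not reported here.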

Additional observations from a re-analysis of the deposited data

How the results depend on the processing

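The medians of the 4 complexes and of all members kept their sign under all 14 alternatives. They moved by less than the spread between libraries in each, but that spread is wide beside the medians. As a pooled SD within groups it was 0.097 for complex II, 0.19 for complex III, 0.18 for complex IV, 0.17 for ATP synthase and 0.16 for all members. The median of complex IV, 0.21 here, was 0.087 with the length trend removed. Leaving out 1 library gave 0.065 to 0.15 for complex II, 0.23 to 0.42 for complex III, 0.14 to 0.32 for complex IV, 0.13 to 0.32 for ATP synthase and 0.16 to 0.32 for all members. The number of genes that passed over all genes, 18 here, was 114 with no count filter, 11 with DESeq2 size factors, 37 with DESeq2, 4 with limma-voom, 11 and 5 with the length trend and with the length and GC trends removed, 10 with each listing on its own, and 13 to 148 without 1 library. With the replicate block it was 22, no member passed, and complex III had a median of 0.32. Members that passed numbered 1 with no count filter and 0 to 3 without 1 library. Of the 26 named members 4 changed sign, all with small values. SDHD was at -0.0070 with DESeq2 size factors and with DESeq2, -0.12 and -0.051 with the trends removed, -0.0035 with each listing on its own and -0.088 to 0.055 without 1 library (below 0 without NC library 1 and without PRDM16 library 2). UQCRB was at 0.0046 with limma-voom, 0.0027 with the replicate block, 0.12 and 0.25 with the trends removed and -0.14 to 0.082 without 1 library (above 0 without NC library 2 or 3 or PRDM16 library 1). UQCRH was at -0.034 and COX6C at -0.092 with the length trend removed, and COX6C at -0.081 to 0.19 without 1 library (below 0 without NC library 1 and without PRDM16 library 2). Members outside these 26 changed sign too. With the length trend removed ATP5F1C was at -0.11, COX7C at -0.024, ATP5PB at -0.018 and ATP5PD at -0.046. With the length and GC trends removed COX6B1 was at -0.043 and ATP5ME at -0.024. Over the alternatives 32 (without NC library 1) to 40 members were higher. Apart from the removed trends and the smaller number of libraries or genes tested, the cause was not tested. Over members listed at 1 place, the medians were 0.30 for complex III and 0.21 for all members. Levels of UQCRC2 and ATP5IF1 are limited by their listing at 2 places.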

Other observations

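Genes next to these complexes gave mixed values. CYCS, the cytochrome c that carries electrons from complex III to complex IV, had 2864, 4392 and 2848 counts in the NC libraries and 2176, 3470 and 4968 in the PRDM16 libraries, a log2 fold change of -0.21 ± 0.12 (SE; edgeR adjusted p = 0.330). Scaled for depth, all its PRDM16 libraries lay below all its NC libraries, as they did for DMAC2L, a factor bound to ATP synthase (-0.24 ± 0.14), where 8.7% of all genes did so. The small ATP synthase subunits ATP5MJ and ATP5MK were at 0.27 ± 0.16 and 0.14 ± 0.14. Of 13 citric acid cycle enzymes 9 were higher, with a median of 0.079, 0 passed and 1 had an unadjusted p under 0.05, the isocitrate dehydrogenase subunit IDH3G (0.30 ± 0.12, edgeR adjusted p = 0.262).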
